A study of Homo sapiens with 6 samples.

Results

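The mitochondrial ribosomal protein genes of TE1 cells were examined with and without forced FGL1 expression. Members were the genes whose symbol is MRPL or MRPS followed by a number and, for some, a letter from A to C. This gave 78 of the 12180 genes in the deposited gene table, 49 MRPL and 29 MRPS genes on 21 chromosomes, together with their 227 entries in the transcript table. TE1 (labelled TE-1) is a human esophageal squamous cell carcinoma line. The 3 FGL1-OE libraries came from TE1 cells that stably carried a lentiviral FGL1 overexpression construct. The 3 NC libraries came from TE1 cells given a control construct of random nonsense sequences, and the labels give their genotype as WT. The paper describes its constructs, the control among them, as made into lentivirus to infect the cells. Stable lines were selected with puromycin, and whether a line was a single clone is not given in the sources used here. Values are FPKM, that is, fragment counts scaled by transcript length and by the library's mapped fragments. The labels do not say whether the 3 libraries of a group were separate cultures, so p-values measure the spread between these libraries only. FGL1 itself, a fibrinogen-like secreted protein, was at 0.0202, 0 and 0.106 FPKM in NC and at 33.5, 39.3 and 39.9 FPKM in FGL1-OE.

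Mitochondrial ribosomal proteins are encoded in the nucleus, made in the cytosol and imported into mitochondria, where they assemble with ribosomal RNA from the mitochondrial genome. The large subunit, built mainly of MRPL proteins, forms peptide bonds, and the small subunit, built mainly of MRPS proteins, reads the messenger. The finished mitoribosome makes only the few hydrophobic proteins of the respiratory chain and ATP synthase that mitochondrial DNA encodes. Many of its proteins descend from bacterial ribosomal proteins, and others have no bacterial counterpart.

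All 78 genes were above 0 in all 6 libraries. Their mean over the libraries had a median of 21.0 FPKM, with quartiles of 10.8 and 39.4 FPKM, and that median lay at the 83.8th percentile of all listed genes. Mean levels spanned a 156-fold range. Of the 78 genes, 49 lay between 10 and 50 FPKM, 12 above 50 and 4 (MRPL42, MRPS36, MRPS33 and MRPL46) below 5. The median was much the same for the MRPL genes (20.7 FPKM) and the MRPS genes (21.2 FPKM). FPKM is scaled for length, but levels of different genes can be compared only roughly. The transcript FPKM of a member summed to between 0.887 and 5.83 times its gene FPKM. In bulk RNA, a change in the number of cells that carry a transcript and a change in its amount per cell cannot be told apart.

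MRPL12, which forms the flexible stalk of the large subunit where translation factors bind, was the most abundant member by gene FPKM. The NC libraries held 273, 93.6 and 188 FPKM of it and the FGL1-OE libraries 192, 144 and 159 FPKM. The spread within NC took in all 3 FGL1-OE values. MRPL51, a large-subunit protein without a bacterial counterpart, came next and was steady, at 101, 89.4 and 94.1 FPKM in NC and 95.9, 94.0 and 93.9 FPKM in FGL1-OE. The log2 fold change came to 7.14e-05 ± 0.14 (SE). MRPS34, a small-subunit protein without a bacterial counterpart, was the highest MRPS gene by gene FPKM. It measured 111, 62.3 and 90.6 FPKM in NC and 105, 81.2 and 88.3 FPKM in FGL1-OE. The spread of these 3 genes overlapped, MRPL51 and MRPS34 most closely, with means of 94.6 and 89.7 FPKM. The order at the top depended on the deposited table. The transcripts listed for MRPL33 summed to a mean of 203 FPKM, above 175 FPKM for MRPL12 and 171 FPKM for MRPL51. Those of MRPS24 (118 FPKM) and MRPS15 (89.7 FPKM) summed to more than those of MRPS34 (83.0 FPKM).

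MRPL33, a small protein of the large subunit with a bacterial counterpart, averaged 70.4 FPKM, MRPS26 52.3 FPKM and MRPS21 51.8 FPKM. At the low end stood MRPL42, at 0.791, 1.61 and 0.959 FPKM in NC and 0.932, 1.11 and 1.30 FPKM in FGL1-OE. Its group means differed by less than the SD within either group, and could not be distinguished. MRPS36, now also known as a subunit of the 2-oxoglutarate dehydrogenase complex and not of the ribosome, was the lowest MRPS gene with a mean of 3.96 FPKM, followed by MRPS33 at 4.31 FPKM, and MRPL46 averaged 4.53 FPKM. The low level of 2 of these genes depended on the deposited table, since the transcripts listed for MRPL46 summed to a mean of 26.4 FPKM and those of MRPS33 to 15.4 FPKM, against 2.33 FPKM for MRPL42 and 4.14 FPKM for MRPS36. Reads of some members could be shared with copies elsewhere in the genome, since the GENCODE 29 annotation names 75 pseudogenes after 34 of the members. MRPS21 has 8 of them, MRPL57 and MRPS36 have 5 each, and MRPL42, MRPS31, MRPS17 and MRPL35 have 4 each, so the levels of these genes are uncertain.

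**Figure D1:**
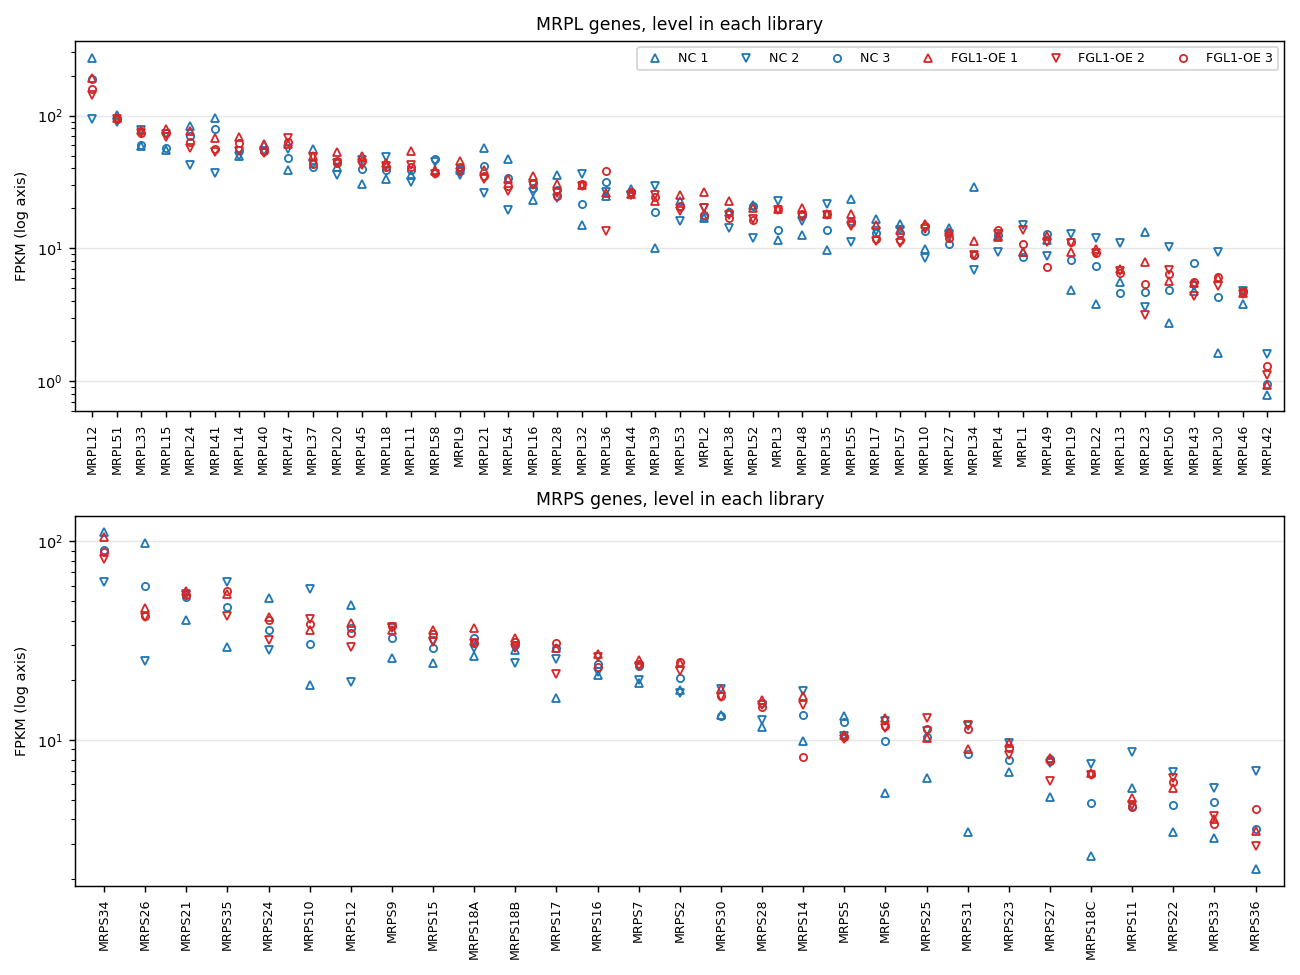
FPKM of the 49 MRPL genes (upper panel) and the 29 MRPS genes (lower panel) in each of the 6 libraries, on a log axis, ordered by mean level. Blue symbols are NC and red symbols FGL1-OE, and in 37 of the 78 genes all 3 red symbols lie inside the span of the blue ones. NC 1 and NC 2 mark the ends of that span in 50 genes.

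The start regions of the members shared sequence features. RefSeq windows (build GRCh38.p14) of 300 bases, from 250 before to 50 after an annotated start, were found for 69 of the 78 members. MRPL2, MRPL10, MRPL13, MRPL15, MRPL21, MRPL23, MRPL35, MRPS28 and MRPS36 were not matched. The ETS core, CCGGAAG on either strand and the kind of site bound by the ETS factor GABP (NRF2), was present in 30 of the 69 members (43.5%), against 22.9% of the 9411 listed genes with a window and 10.3% of all 35116 windows. In 19 members (27.5%, against 9.16% of listed genes) it lay within the last 50 bases before the start. The YY1 sequence, AAGATGGCG, was found in 13 members (18.8%, against 4.95% of listed genes and 1.75% of all windows). The site of the respiratory factor NRF1 (GCGC and TGCGC parted by any base) was found in 9 members, 13.0% against 13.5% of listed genes and 5.78% of all windows. GGGCGG, bound by SP1, was found in 60.9% of members and 79.0% of listed genes, and TATAAA in 3 members, MRPL18, MRPL54 and MRPS15 (4.35% against 7.67%). Each motif was searched on both strands. A gene counted when any of its windows matched, and the 69 members had 85 windows and the 9411 listed genes 13685. The shares of all windows count single windows instead, so they are not directly comparable with the shares of genes. None contains another, but their ends can overlap, as in the AAG shared by the ETS and YY1 letters.

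The stretches below, each of 60 bases, show where the ETS or NRF1 letters lie in members whose values are described next. Those of MRPL47, MRPS31, MRPS34 and MRPL34 end at the start, while those of MRPS26, MRPL51 and MRPL30 end 4, 71 and 81 bases before it. Capitals mark the matches, and each stretch is written 5′ to 3′ on the strand of the gene.
MRPL47 (chr3:179604647-179604706, minus strand, ETS): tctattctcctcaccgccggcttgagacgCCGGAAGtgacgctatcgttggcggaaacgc
MRPS31 (chr13:40771191-40771250, minus strand, ETS): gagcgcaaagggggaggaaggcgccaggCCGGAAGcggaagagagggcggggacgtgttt
MRPS34 (chr16:1773135-1773194, minus strand, ETS): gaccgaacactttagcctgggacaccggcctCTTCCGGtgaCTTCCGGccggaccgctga
MRPL51 (chr12:6493334-6493393, minus strand, ETS): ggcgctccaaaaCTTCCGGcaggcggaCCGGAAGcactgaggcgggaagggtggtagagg
MRPS26 (chr20:3045988-3046047, plus strand, ETS): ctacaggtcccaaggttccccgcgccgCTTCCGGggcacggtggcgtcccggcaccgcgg
MRPL34 (chr19:17305593-17305652, plus strand, NRF1): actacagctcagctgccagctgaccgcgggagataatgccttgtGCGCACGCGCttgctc
MRPL30 (chr2:99181043-99181102, plus strand, NRF1): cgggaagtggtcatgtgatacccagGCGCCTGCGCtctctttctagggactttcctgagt
MRPL51 and MRPS34 each held a pair of ETS matches in the stretch shown. The window of MRPL12 held none of the 5 motifs. Members with an ETS match had a median log2 fold change of 0.15 (30 genes) and those without of 0.13 (39 genes), with 22 and 27 of them above 0.

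The comparison of FGL1-OE with NC asked whether forced FGL1 expression went along with other levels of these genes. Fold changes are differences of log2(FPKM + 1), a scale on which low genes appear to change less than they do, and the test was limma over all 12017 genes with a mean of at least 0.5 FPKM, which included all 78 members. No member passed an adjusted p of 0.05 (lowest 0.999998), where 0.00832% of all genes tested did, a single gene, FGL1. At an unadjusted p under 0.05, 3 members were higher in FGL1-OE, against 1.21% of all genes tested, and 0 were lower, against 0.807% (2.01% in either direction). These 3 were MRPL47, MRPL10 and MRPS2. All 3 FGL1-OE libraries lay above all 3 NC libraries in 5 members (4.09% of all genes tested), and below them in 0 (3.06%). The counts of members are too small to be set apart from these shares.

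Most members had a small positive fold change. It was above 0 in 55 of 78 members (70.5%), against 53.7% of all genes tested, with a median of 0.15 against 0.016 and a range from -0.31 to 0.52. Among the MRPS genes 23 of 29 were above 0 (median 0.18) and among the MRPL genes 32 of 49 (median 0.07). Only MRPS31 exceeded 0.5 in size. The median standard error of a member's fold change was 0.19, larger than the median fold change. The 82 genes with the symbol of a cytosolic ribosomal protein had 38 above 0 and a median of -0.013. Most build the ribosomes of the cytosol, but the symbols also take in paralogs such as RPL22L1 and RPL7L1. At an unadjusted p under 0.05 (limma), 0 were higher and 1 was lower, RPL7L1, a paralog of RPL7. All these fold changes rest on the same 6 libraries and are not separate observations.

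**Figure D2:**
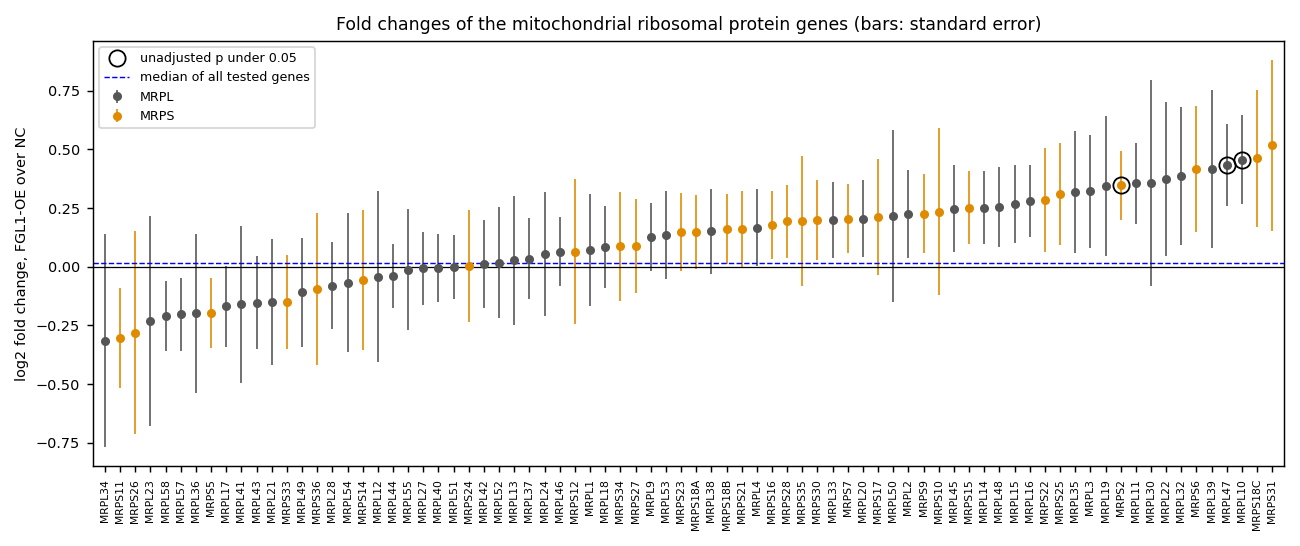
Log2 fold change of each member, FGL1-OE over NC, in rising order, with its limma standard error as a bar. Grey points are MRPL and orange points MRPS genes, circles mark the 3 members with an unadjusted p under 0.05, the solid line marks 0 and the broken line the median of all tested genes. The points climb evenly from -0.31 to 0.52 and the bars of neighbouring genes overlap.

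MRPL47 lies near the mouth of the tunnel through which the growing chain leaves the large subunit. The gene (ENSG00000136522.13_2, GRCh37, chromosome 3, 179306073 to 179322442) measured 38.9, 56.1 and 47.7 FPKM in NC and 61.2, 67.4 and 63.1 FPKM in FGL1-OE. The lowest FGL1-OE value exceeded the highest NC value. Its log2 fold change was 0.43 ± 0.17 (SE), with an unadjusted p of 0.0387 (limma). The exact two-sided permutation test gave p = 0.1, the smallest for 3 against 3 libraries, as it did for the other members without overlap.

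MRPL10 and MRPL11 belong, with MRPL12, to the stalk of the large subunit and its base. MRPL10 (ENSG00000159111.12_2, chromosome 17, 45900638 to 45908900) measured 9.91, 8.43 and 13.6 FPKM in NC and 15.4, 13.9 and 14.8 FPKM in FGL1-OE, so that the groups did not overlap, although NC 3 and FGL1-OE 2 were within 1 FPKM of each other. The log2 fold change was 0.46 ± 0.19 (limma, unadjusted p = 0.0446). MRPL11 was at 35.6, 31.8 and 39.1 FPKM in NC and at 54.3, 42.4 and 41.0 FPKM in FGL1-OE. Its groups also did not overlap, with a log2 fold change of 0.35 ± 0.17 (limma, unadjusted p = 0.0741). MRPL12, the abundant partner of both, had a log2 fold change of -0.04 ± 0.36 with overlapping groups. The transcripts of MRPL10 varied more than the gene. MRPL10-202 ran from 4.38 to 20.1 FPKM in NC and from 1.83 to 22.3 FPKM in FGL1-OE, and MRPL10-201 from 0.0718 to 1.79 FPKM in NC and from 1.25 to 18.1 FPKM in FGL1-OE.

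MRPS2, a small-subunit protein with a bacterial counterpart (ENSG00000122140.10_3, chromosome 9, 138391830 to 138396519), measured 18.0, 17.2 and 20.5 FPKM in NC and 24.5, 22.2 and 24.8 FPKM in FGL1-OE. The groups did not overlap and the log2 fold change was 0.35 ± 0.15 (limma, unadjusted p = 0.0466). MRPL16, at 23.3, 26.8 and 28.6 FPKM in NC and 35.1, 30.0 and 30.9 FPKM in FGL1-OE, was the fifth member without overlap (log2 fold change 0.28 ± 0.15, limma, unadjusted p = 0.107). With 1 library left out, MRPL47 had an unadjusted p under 0.05 only without NC 2, and MRPL10 and MRPS2 only without NC 3.

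The other 3 of the 5 largest positive fold changes shrank to 0.14 or less without NC 1. MRPS31, a small-subunit protein without a bacterial counterpart, was at 3.47, 11.8 and 8.49 FPKM in NC and at 9.03, 11.9 and 11.3 FPKM in FGL1-OE. NC 2 lay inside the FGL1-OE values and NC 1 far below them. The log2 fold change was 0.52 ± 0.36 (limma, unadjusted p = 0.194) and was 0.082 without NC 1. MRPS18C also had its lowest value in NC 1, at 2.61, 7.55 and 4.84 FPKM in NC and at 6.86, 6.69 and 6.79 FPKM in FGL1-OE. The log2 fold change came to 0.46 ± 0.29, and 0.14 without NC 1. MRPL39, related in sequence to threonyl-tRNA synthetase, was at 10.03, 29.3 and 18.9 FPKM in NC and at 22.7, 25.2 and 24.4 FPKM in FGL1-OE, with a log2 fold change of 0.42 ± 0.34, and 0.031 without NC 1.

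Of the 5 most negative fold changes, 3 turned positive without NC 1. MRPL34, a short protein with a bacterial counterpart, was at 28.7, 6.92 and 8.99 FPKM in NC and at 11.3, 8.97 and 8.97 FPKM in FGL1-OE. NC 1 was the single high value, and the log2 fold change of -0.31 ± 0.45 turned to 0.27 without it. MRPS26, a small-subunit protein without a bacterial counterpart, was at 98.7, 25.1 and 59.6 FPKM in NC and at 46.5, 41.7 and 42.3 FPKM in FGL1-OE, with a log2 fold change of -0.28 ± 0.43 and of 0.16 without NC 1. MRPL23, which stands beside MRPL47 at the tunnel mouth, was at 13.2, 3.65 and 4.71 FPKM in NC and at 7.83, 3.12 and 5.38 FPKM in FGL1-OE. The log2 fold change came to -0.23 ± 0.45, and 0.25 without NC 1. MRPS11, on the platform of the small subunit, was at 5.74, 8.68 and 4.70 FPKM in NC and at 5.13, 4.71 and 4.63 FPKM in FGL1-OE (log2 fold change -0.30 ± 0.21, and -0.09 without NC 2). MRPL58, a peptidyl-tRNA hydrolase that frees stalled chains and is built into the large subunit, was at 38.3, 44.7 and 47.2 FPKM in NC and at 39.2, 36.1 and 36.7 FPKM in FGL1-OE. It kept a negative fold change with any library left out (-0.21 ± 0.15, from -0.29 to -0.15).

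**Figure D3:**
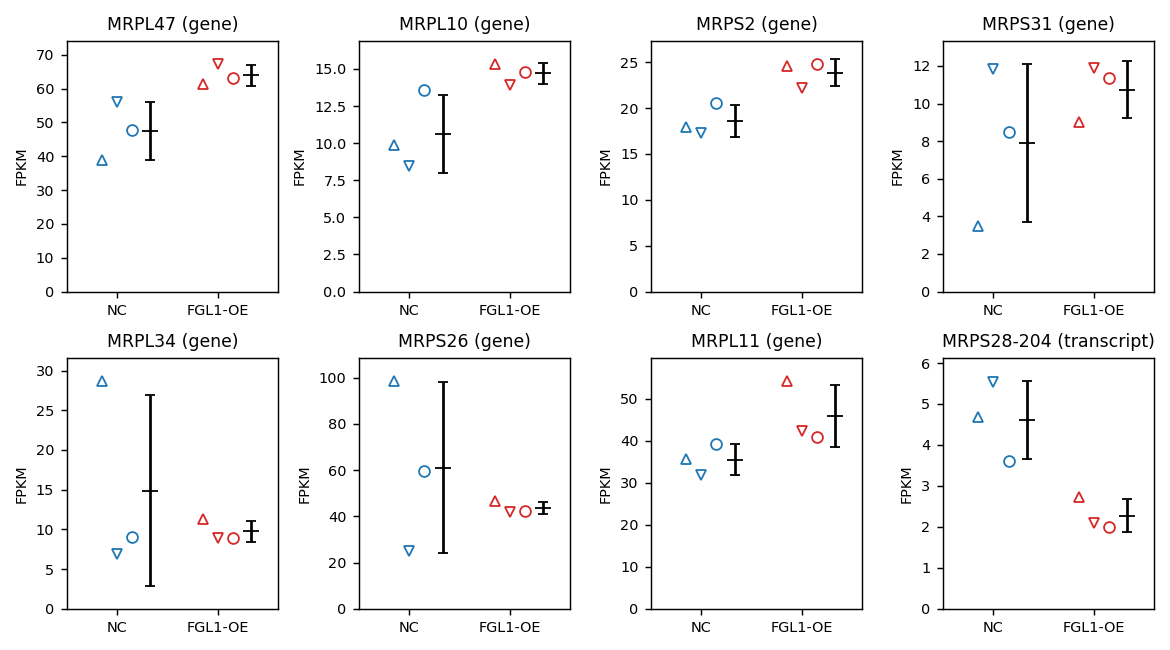
FPKM in each library for 7 genes and the transcript MRPS28-204, NC in blue and FGL1-OE in red, with the mean and SD (n = 3) of each group as a black bar and every axis from 0. In MRPL47, MRPL10, MRPL11, MRPS2 and MRPS28-204 the groups do not overlap, whereas in MRPS31, MRPL34 and MRPS26 the NC values spread wider than the difference between the groups.

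The 3 copies of the bacterial protein S18 did not share a pattern across libraries. MRPS18C takes the bacterial position on the small subunit, MRPS18B sits elsewhere on the small subunit and MRPS18A is part of the large subunit. MRPS18A was at 26.5, 29.2 and 32.6 FPKM in NC and at 36.5, 30.8 and 30.9 FPKM in FGL1-OE. MRPS18B was at 28.4, 24.6 and 30.1 FPKM in NC and at 32.7, 29.2 and 31.1 FPKM in FGL1-OE. Both were about 5 times as abundant as MRPS18C, whose mean was 5.89 FPKM against 31.1 and 29.3 FPKM. By summed transcripts the means were closer, at 19.98 FPKM for MRPS18C, 39.5 FPKM for MRPS18A and 35.8 FPKM for MRPS18B. Their log2 fold changes were 0.15 ± 0.16 and 0.16 ± 0.15, with overlapping groups. MRPS12, a protein of the decoding centre, was at 48.0, 19.6 and 36.7 FPKM in NC and at 38.7, 29.6 and 34.8 FPKM in FGL1-OE (log2 fold change 0.06 ± 0.31). MRPS22, another small-subunit protein, had a log2 fold change of 0.28 ± 0.22, MRPL30 of 0.36 ± 0.44, MRPL33 of 0.20 ± 0.16, MRPS21 of 0.16 ± 0.16, MRPL46 of 0.06 ± 0.15, MRPS34 of 0.09 ± 0.23, MRPS33 of -0.15 ± 0.20 and MRPS36 of -0.10 ± 0.32, all with overlapping groups.

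The NC libraries differed more among themselves than the FGL1-OE libraries did. The SD of log2(FPKM + 1) within NC had a median of 0.29 over the members, against 0.11 within FGL1-OE, and was the larger in 66 of 78 members (84.6%, as in 84.1% of all genes tested). All 3 FGL1-OE values lay inside the NC range in 37 members (47.4%, against 57.0% of all genes tested), and NC 3 lay between NC 1 and NC 2 in 50 (64.1% against 70.0%). NC 1 held the lowest value of the 6 libraries in 38 members and the highest in 21. NC 2 held the lowest in 24 and the highest in 22, and FGL1-OE 1 held the lowest in 0 and the highest in 23. Across the 78 members, NC 1 and NC 2 correlated with a Pearson's r of 0.810 on the log2 scale and the FGL1-OE libraries with one of at least 0.979, where the points share the same libraries and the same wide range of levels.

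In 9 members (11.5%) NC 1 was at least 2-fold above NC 2, and in 15 (19.2%) NC 2 was at least 2-fold above NC 1, shares near the 14.6% and 18.1% of all genes tested. MRPL34 was 4.15-fold and MRPS26 3.93-fold higher in NC 1, and MRPL30 was 5.77-fold higher in NC 2, at 1.64, 9.45 and 4.27 FPKM in NC and 5.93, 5.21 and 6.09 FPKM in FGL1-OE. These differences were ordered by GC content. Over the 78 members, the difference between NC 1 and NC 2 had a Spearman rho of 0.847 with the GC content of the gene's leading transcript (0.788 over 11775 genes). The 39 members with the lower GC content had a median difference of -0.62 on the log2 scale and the 39 with the higher GC content of 0.30. The fold changes between the groups followed GC content the other way, with a rho of -0.43 over the members, a median of 0.22 in the lower and 0.035 in the higher GC content members, and 33 and 22 of 39 above 0. Over all 11775 genes the rho was -0.328, the medians were 0.066 and -0.038, and 3902 of 5887 and 2434 of 5888 genes were above 0. The MRPS genes, which had the larger median fold change, also had the lower median GC content (47.3% against 50.8%). With a smooth trend on GC content and length removed from each library, the median fold change of the members was 0.11, with 54 above 0. The median and the share above 0 over all genes in that fit are not given here. Whether the members still differ from all genes in direction thus cannot be read from it. In that fit 4 members were higher and 1 lower at an unadjusted p under 0.05 (limma), against 3.1% and 3.28% of the genes tested. The 4 were MRPL10, MRPL47, MRPS2 and MRPS18C, and the 1 was MRPL58.

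**Figure D4:**
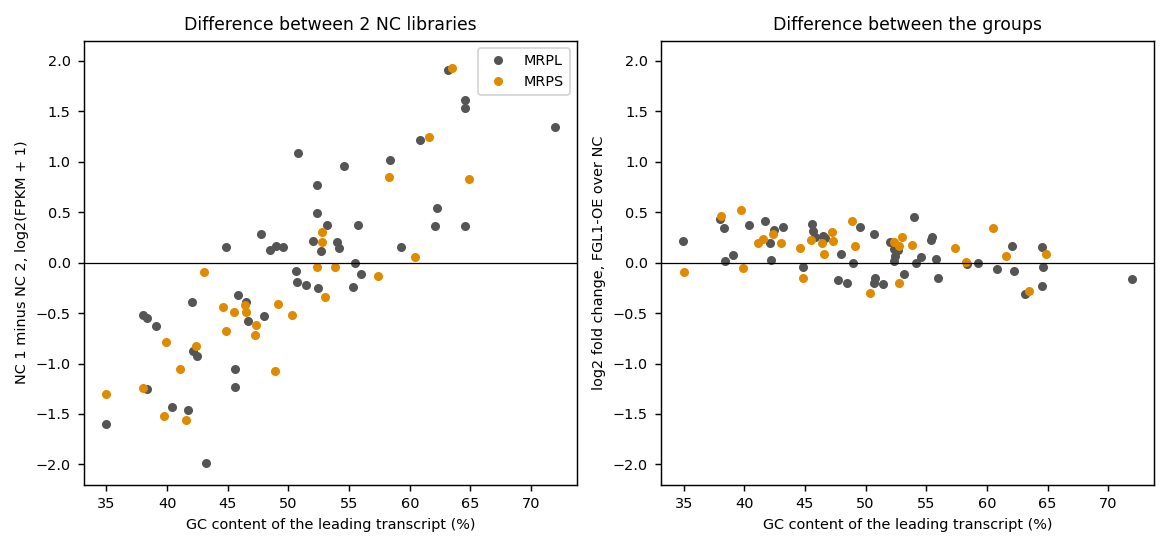
The 78 members by GC content of their leading transcript (horizontal axis, %). The left panel shows the difference between NC 1 and NC 2 in log2(FPKM + 1), which climbs with GC content (rho 0.847), and the right panel the log2 fold change of FGL1-OE over NC on the same scale, which slopes slightly the other way (rho -0.43).

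Without NC 2, 19 members were higher and 3 lower at an unadjusted p under 0.05, against 11.2% and 10.6% of all genes in that fit, and the lowest adjusted p of a member was 0.194 (limma). The 3 lower members were MRPS26, MRPL41 and MRPL21, and of the 3 members named above MRPL47 alone was among the 22. Without NC 1, 0 members were higher and 1, MRPS33, was lower (limma), against 1.53% and 1.22% of all genes.

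**Figure D5:**
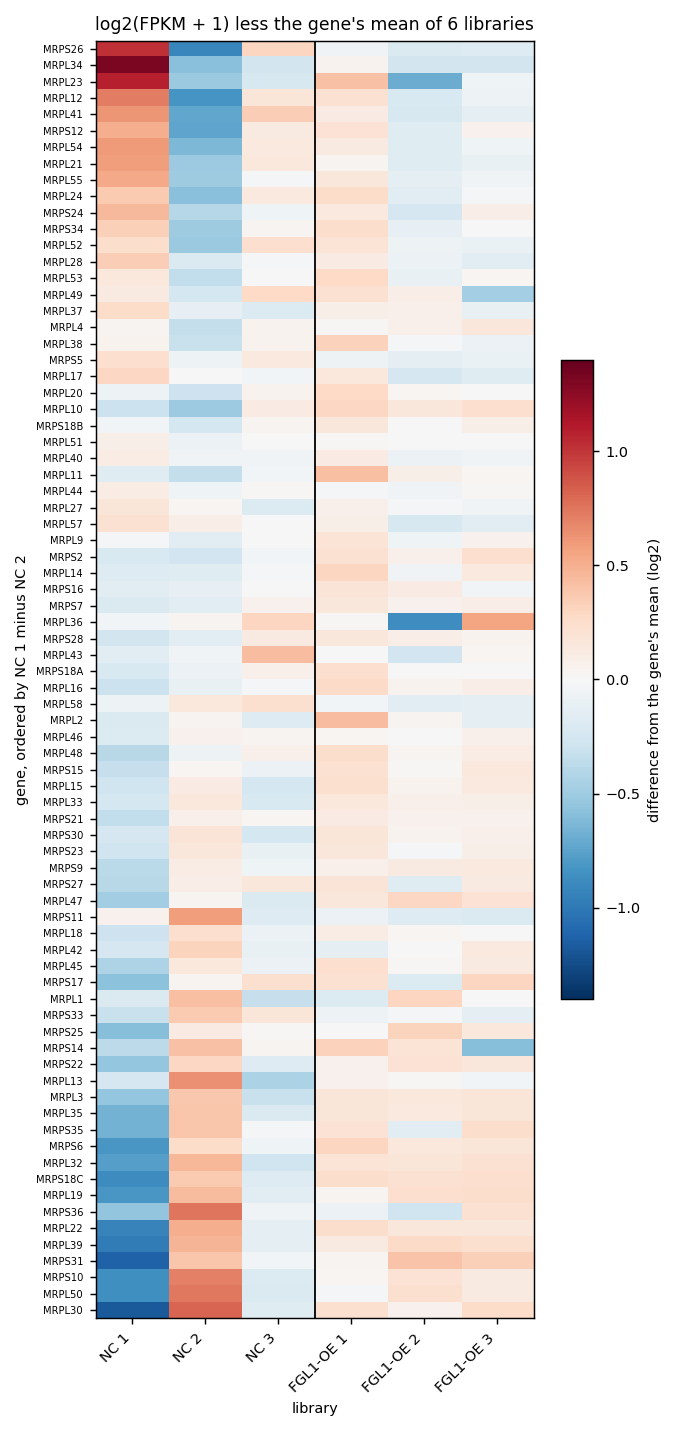
Each member's log2(FPKM + 1) less its mean over the 6 libraries, with a row for each of the 78 genes ordered by the difference between NC 1 and NC 2 and a column for each library (red above, blue below the mean). NC 1 and NC 2 show opposite colours at the top and at the bottom, and NC 3 and the FGL1-OE libraries are pale.

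The summed level of all members differed little between groups. It was 2298, 2030 and 2201 FPKM in NC and 2449, 2136 and 2241 FPKM in FGL1-OE, or 1.09%, 0.897% and 1.04% of the listed FPKM in NC and 1.09%, 0.998% and 1.04% in FGL1-OE. The 46 members with a bacterial counterpart had a median log2 fold change of 0.19, with 35 above 0, and the 28 without of 0.08, with 19 above 0. All 5 members without overlap between the groups belonged to the first list, at 46 of 78 members.

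Transcripts of the members were compared in the same way, since the genes may use other isoforms at an unchanged total. Of the 227 listed transcripts, 220 had a mean of at least 0.5 FPKM and were tested among 30330. The number listed per gene ran from 1, in 25 members, to 16, in MRPL55, and isoforms of a gene share reads. The transcript FPKM of a member summed to between 0.887 and 5.83 times (MRPL46) its gene FPKM, with a median of 1.55, so the tables are not on 1 scale. No transcript of a member passed an adjusted p of 0.05 (limma, lowest 0.999896), where 0.0165% of all transcripts tested did. At an unadjusted p under 0.05, 1 was higher (2.05% of all transcripts tested were) and 3 were lower (1.48%). The groups did not overlap in 11 that were higher and 5 that were lower, against 4.65% and 3.57% of all transcripts tested. The 5 were MRPS28-204, MRPL55-212, MRPL55-213, MRPL55-214 and MRPL24-204. An unadjusted p under 0.05 in either direction was reached by 3.53% of all transcripts. The log2 fold change was above 0 in 124 of the 220, against 51.9% of all transcripts tested, with a median of 0.07. The largest value, 1.85 ± 1.39 for MRPL37-206, rested on NC 1, since the NC libraries were at 0.0728, 37.1 and 38.0 FPKM and the FGL1-OE libraries at 39.6, 50.3 and 35.0 FPKM.

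MRPS28-204, a minor transcript of the small-subunit gene MRPS28, was at 4.68, 5.53 and 3.62 FPKM in NC and at 2.73, 2.08 and 1.99 FPKM in FGL1-OE. The groups did not overlap, and the log2 fold change was -0.77 ± 0.25 (limma, unadjusted p = 0.0201), the lowest unadjusted p of any member transcript. Its share of the MRPS28 total was 15.2%, 18.4% and 9.50% in NC and 7.01%, 5.86% and 5.63% in FGL1-OE. These shares come from the same FPKM values and are not a separate observation. Of the other 5 listed transcripts of MRPS28, the leading MRPS28-201 had a log2 fold change of 0.30 ± 0.25, MRPS28-203 of 0.43 ± 0.23, MRPS28-205 of 1.00 ± 0.64, MRPS28-202 of -0.33 ± 0.35 and MRPS28-208 of -0.20 ± 0.31. The gene had one of 0.19 ± 0.16.

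MRPL55, a large-subunit gene, held the other transcripts that were lower, both short forms spanning chromosome 1, 228294380 to 228296732 (GRCh37). MRPL55-214 was at 0.782, 4.59 and 8.12 FPKM in NC and at 0.709, 0.409 and 0.563 FPKM in FGL1-OE, where NC 1 stood just above the FGL1-OE values and the other two NC libraries far above (log2 fold change -1.53 ± 0.60, limma, unadjusted p = 0.041). MRPL55-212 was at 0.703, 1.48 and 2.00 FPKM in NC and at 0.427, 0.290 and 0.407 FPKM in FGL1-OE (-0.76 ± 0.28, limma, unadjusted p = 0.0347). MRPL55-207 went the other way, at 15.8, 0.664 and 5.34 FPKM in NC and 15.1, 18.0 and 11.4 FPKM in FGL1-OE (1.47 ± 0.81, limma, unadjusted p = 0.118), with overlapping groups. The 13 other listed transcripts of MRPL55 had no unadjusted p under 0.05 or a mean under 0.5 FPKM, and MRPL55-210 and MRPL55-218 were listed at 0 in all libraries but NC 1.

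Many members start close to another gene on the opposite strand. Whether reads were counted by strand is not given in the sources used here, so reads where such genes overlap could be shared. By the GRCh37 coordinates of the table and the strand of the annotation, 22 of the 78 members (28.2%) had a gene starting within 500 bases on the opposite strand, against 12.7% of 12118 listed genes. Some of these pairs lie back to back, and others overlap at their starts, as do MRPL11 and PELI3 (411 bases) and MRPL51 and NCAPD2 (485 bases). MRPL46 and MRPS11, at 89002707 to 89010650 and 89010684 to 89024004 on chromosome 15, are such a pair of members, with starts 34 bases apart. MRPL46 was at 3.81, 4.75 and 4.68 FPKM in NC and at 4.63, 4.51 and 4.78 FPKM in FGL1-OE, while MRPS11 ranged more widely, as given above, and the fold changes of the pair had opposite signs. MRPL47 starts 36 bases from NDUFB5, a complex I subunit with a log2 fold change of 0.15, and MRPL10 starts 93 bases from LRRC46 (-0.25). MRPL52, at a log2 fold change of 0.02, starts 59 bases from SLC7A7, an amino acid transporter subunit named here after its values were seen, which was at 6.88, 8.81 and 6.63 FPKM in NC and at 4.09, 3.61 and 4.75 FPKM in FGL1-OE (-0.71, limma, unadjusted p = 0.00347).

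None of the genes that work with the mitoribosome passed the same thresholds of p. Of 5 further subunit genes without an MRP symbol, 26 assembly factors, 15 translation factors, 10 genes of mitochondrial transcription and messenger stability and 13 mitochondrially encoded messengers, 0 passed an unadjusted p of 0.05 (limma) in either direction, where 2.01% of all genes tested did. Fold changes were above 0 in 3 of 5, 16 of 26, 12 of 15, 6 of 10 and 13 of 13 (53.7% of all genes tested), with medians of 0.03, 0.08, 0.08, 0.07 and 0.43. In all 13 messengers the FGL1-OE values lay inside the NC range (57.0% of all genes tested). By mean FPKM, MT-ATP8 (2689 in NC, 2394 in FGL1-OE), MT-ND4 (2359 and 2026), MT-ND2 (1393 and 1318) and MT-ND6 (288 and 281) were lower in FGL1-OE. The means of the other messengers were higher. The groups did not overlap in 3 assembly factors, which were named for this after their values were seen, and in 0 genes of the other 4 lists. MALSU1 and MRM2 were higher and YBEY was lower in FGL1-OE, against 4.09% and 3.06% of all genes tested. MALSU1, which keeps the immature large subunit apart from the small one, came nearest, at 6.54, 7.60 and 7.08 FPKM in NC and 10.97, 8.50 and 8.83 FPKM in FGL1-OE (log2 fold change 0.36 ± 0.16, limma, unadjusted p = 0.0504). MRM2, a methyltransferase of the large-subunit ribosomal RNA, had a log2 fold change of 0.22 ± 0.16 (limma, unadjusted p = 0.217). YBEY, an endoribonuclease, measured 7.55, 7.93 and 6.56 FPKM in NC and 6.55, 5.37 and 4.93 FPKM in FGL1-OE (-0.34 ± 0.16, limma, unadjusted p = 0.0698), with NC 3 and FGL1-OE 1 almost equal. The mitochondrially encoded messengers, which the mitoribosome translates, took 4.76%, 20.1% and 8.51% of the listed FPKM in NC and 12.5%, 12.8% and 11.9% in FGL1-OE. NC 1 and NC 2 were thus the lowest and the highest library for these messengers, and the FGL1-OE values lay between them. Whether this share bears on the members' values was not tested.

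The libraries carried 14 of 15 squamous epithelial markers, with sums of 780 to 1117 FPKM, and KRT14 was not listed. Of 8 mesenchymal markers 5 were listed, with sums of 23.0, 16.7 and 22.5 FPKM in NC and 25.7, 33.3 and 23.7 FPKM in FGL1-OE, which did not overlap. Most of each sum was VIM, with means of 15.4 FPKM in NC and 21.99 FPKM in FGL1-OE. The other listed markers did not share its rise. COL1A1 had a log2 fold change of -0.14, COL1A2 of 0.0077 and ACTA2 of 0.035, all with overlapping groups. LUM, too low to be tested, was highest in FGL1-OE 2, at 2.33 FPKM. Of 7 blood cell markers 2 were listed (2.54 to 6.67 FPKM), and of 7 columnar epithelial markers KRT8 and KRT18 only (512 to 970 FPKM). The test covered 13 squamous, 4 mesenchymal, 1 blood cell and 2 columnar markers. At an unadjusted p under 0.05 (limma), 3 of them were higher in FGL1-OE, against 1.21% of all genes tested. In each of the 3 the groups did not overlap, as in 4.09% of all genes tested in that direction. These were VIM, a mesenchymal filament gene (log2 fold change 0.49 ± 0.16, limma, unadjusted p = 0.0179), CDH1, which encodes E-cadherin (0.54 ± 0.20, limma, unadjusted p = 0.0263), and KRT6A, an epithelial keratin (0.50 ± 0.18, limma, unadjusted p = 0.0241). The number of markers lower was 0. The lowest squamous and columnar sums were both those of NC 2. Their part in the members' values was not tested.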

How the data were processed

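RNA from TE1 cells (3 NC and 3 FGL1-OE libraries) was enriched for mRNA with oligo(dT) beads, made into stranded libraries and sequenced on an Illumina instrument. The labels also name removal of rRNA as the other option, without saying which was used for which library. The authors deposited FPKM values per library for genes and for transcripts, which the submitters' processing notes tie to StringTie and GRCh37. The deposited tables also hold the authors' log2 group means, fold changes and p-values, which were not used. The tables hold no read counts, and no step of a single read could be found among low values, which leaves the depth unknown. The number of columns of unknown sample was 0.

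Genes and transcripts averaging 0.5 FPKM or more over the 6 libraries were tested on log2(FPKM + 1) with limma 3.58.1 in R 4.3.3, without covariates or scaling, with Benjamini-Hochberg adjustment over each table. Exact permutation tests went through every split into 3 and 3 libraries in Python 3.11.15 (smallest p 0.1). Spearman correlations used scipy 1.17.1. The code was tested on simulated data.

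GENCODE 29, on GRCh38, gave strand, GC content, transcript length and pseudogene names only. Start regions came from RefSeq, without those on 1 chromosome.

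The members and lists were chosen with earlier results of these data known. Named are members with an unadjusted p under 0.05, the 5 highest and 5 lowest fold changes, the 3 highest and 3 lowest levels of MRPL and of MRPS genes, the 3 largest SDs within NC, the 3 copies of S18, MRPL12, MRPS12, FGL1, and transcripts with an unadjusted p under 0.05 with their sister transcripts. A feature picked by these rules is not reported here. Other genes were named after their values were seen. MRPL58 also stood in the list of subunits without an MRP symbol under its older symbol, and is counted as a member only. Alternatives were a pseudocount of 0.1, other filters (none, or a mean of 1 FPKM), scaling to a common sum or median, quantile normalization, other variance estimates, a replicate block, leaving out each library and summed transcripts. Removal of a trend on GC content and length (lowess, span 0.3) was added after seeing the data.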

Additional observations from a re-analysis of the deposited data

How the results depend on the processing

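No member gene or transcript passed an adjusted p of 0.05 in any of the alternatives run. The number of member genes higher at an unadjusted p under 0.05, 3, was 0 with a pseudocount of 0.1 (1.18% of all genes tested). It was also 0 with summed transcripts (1.54%). With scaling to a common sum (1.21%), a common median (1.17%) or quantiles (1.17%) it was 1. When a library was left out it ran from 0 to 19. It was 0 without NC 1 (1.53%), FGL1-OE 1 (0.724%), FGL1-OE 2 (0.691%) or FGL1-OE 3 (0.682%), and 19 without NC 2 (11.2%). The number lower, 0, was 1 with the GC content and length trend removed (3.28% of all genes tested). When a library was left out it ran from 0 to 3, with 1 without NC 1 (1.22%) and 3 without NC 2 (10.6%). For transcripts, the number higher, 1, was 0 with a pseudocount of 0.1, 5 with an ordinary linear model and 1 to 13 when a library was left out, and the number lower, 3, ranged from 0 (without FGL1-OE 2) to 10. The highest counts were all without NC 2, where 4.37% of all transcripts tested were higher and 4.66% lower. The shares of all transcripts were 1.89% higher with a pseudocount of 0.1, 2.03% higher with an ordinary linear model and 1.29% lower without FGL1-OE 2. The cause was not tested. The median log2 fold change of the members was 0.072 (without FGL1-OE 1) to 0.19 when a library was left out, and 49 to 62 members were above 0.

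Whether the replicate numbers pair the libraries could not be settled. Deviations from the group mean correlated at 0.345, 0.282 and -0.061 between libraries of the same number. Between libraries of different numbers the correlation ran from -0.370 (NC 2 with FGL1-OE 1) to 0.136 (NC 2 with FGL1-OE 3). With the replicate number as a block, 2 member genes were higher (1.41% of all genes tested). In that fit 1 member transcript was lower in place of 3 (1.53% of all transcripts tested).

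Of 501 alternative values for 30 named features, 473 kept their sign, and 28 values of 11 genes had the other sign. MRPL51 was -0.0071, -0.021 and -0.011 under the common sum, common median and quantile scaling and -0.068 with the trend removed. MRPL42 was -0.0093 under the common median and -0.045 with the trend removed, and MRPL12 was 0.044 with the trend removed. When a library was left out, mostly with NC 1 or NC 2 at the ends, MRPL12 ranged from -0.47 to 0.30, MRPL23 from -0.55 to 0.25, MRPL30 from -0.14 to 0.85, MRPL34 from -0.69 to 0.27, MRPL42 from -0.10 to 0.17, MRPL46 from -0.018 to 0.11, MRPL51 from -0.040 to 0.044, MRPS12 from -0.29 to 0.34, MRPS26 from -0.81 to 0.16, MRPS34 from -0.14 to 0.27 and MRPS36 from -0.40 to 0.26.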
